A study of Saccharomyces cerevisiae with 4 samples.

Results

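GCN4 and 43 amino acid synthesis genes were followed in budding yeast with and without deletions of tRNA genes on chromosome III. The 43 serve the synthesis of arginine, lysine, histidine, the aromatic amino acids, threonine, serine and asparagine. These 44 genes were taken by systematic name from the 6706 reading frames listed in each library, and all 44 passed the filter on low counts. HIS3 was left out of the histidine genes because it is an inserted marker in 1 of the strains. RNA was sequenced from 4 libraries of the W-303 background, 2 of the wild-type strain JRY2334 and 2 of the tDNA-less strain JKY690, from untreated cultures in rich medium (YPD) in early log phase. Both strains are MATa and carry ade2-1, trp1-1 and ura3-1. The wild type also carries his3-11,15, can1-100 and a mutant leu2 allele. The tDNA-less genotype numbers 9 tRNA gene deletions on chromosome III (t0D, t1D and t3D through t9D), with LEU2 in place of t8 and t9 and HIS3 as T1+T7::HIS3, and it names no his3, leu2 or can1 mutation. Effects of the missing tRNA genes and of these marker differences cannot be told apart, and each genotype is a single strain. The labels call the libraries of a strain biological replicates, without saying whether they came from separate cultures, so the p-values measure only the spread between these libraries.

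Gcn4 is a basic leucine zipper activator of amino acid synthesis genes. Its mRNA is made in rich medium too, and its translation is held down by short reading frames in its leader until uncharged tRNA activates the kinase Gcn2. Gcn4 binds sites of the form TGACTCA, and it raises most of the pathways described here together, an arrangement called general amino acid control. The libraries report RNA, not Gcn4 protein or tRNA charging.

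The site was looked for in the 250 bases before each start codon of the R64 reference assembly, which is the sequence of the build sacCer3, on both strands. TGACTCA was found before 17 of the 44 genes (38.6%) and before 130 of 6001 nuclear genes (2.17%). The shorter TGACTC, which every TGACTCA holds, was found before 25 of the 44 (56.8%) and before 375 of the 6001 (6.25%). By pathway, TGACTCA was found before 4 of 8 arginine, 3 of 9 lysine, 4 of 6 histidine, 3 of 9 aromatic, 1 of 5 threonine, 0 of 4 serine and 2 of 2 asparagine genes, and not before GCN4. A match is a description of these letters in the reference, which is not W-303, and not evidence of binding.

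The sequences below show the sites of both genes that lie on chromosome III, HIS4 and THR4, and of HOM2, the gene with TGACTCA that had the lowest fold change. They read 5′ to 3′ on the coding strand of the gene, and capitals mark each match within 250 bases of the start codon (that of THR4 is TGACTC on the other strand). A further copy of the short form, in small letters in the first HIS4 stretch, starts outside the 250 bases. The HIS4 stretches are chrIII:68551-68596 and chrIII:68506-68552, that of THR4 is chrIII:216498-216543 and that of HOM2 is chrIV:770153-770199. The matches of HIS4 and THR4 lie on opposite strands relative to the gene.
HIS4, distal: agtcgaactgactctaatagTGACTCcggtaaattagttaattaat
HIS4, proximal: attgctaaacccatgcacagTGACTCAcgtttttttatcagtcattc
THR4: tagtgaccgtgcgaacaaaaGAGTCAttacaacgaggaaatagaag
HOM2: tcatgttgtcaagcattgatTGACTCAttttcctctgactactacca

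Library totals ran from 12.48 M to 19.76 M estimated counts, of which the 44 genes took 0.671% to 0.994%. The largest library was wild-type replicate 2. The a-cell markers MFA1, MFA2, STE2, STE6 and BAR1 lay between 66.9 and 371.5 CPM (counts scaled to a common library size after TMM normalisation) in every library, while the alpha-cell genes STE3, MF(ALPHA)1 and MF(ALPHA)2 were at 3.864 CPM or below and SAG1 at 20.8 to 24.61 CPM. The wild-type libraries differed from each other for the genes described here. The CPM of wild-type replicate 2 was above that of wild-type replicate 1 in 38 of the 44 (86.4%), against 49.4% of all 6205 reading frames tested. The median log2 ratio of replicate 2 over replicate 1 was 0.17 over the 44 genes and -0.003 over all. With 2 wild-type libraries, the values cannot show which of them is the unusual one. The share was 86.7% for the 15 sulfur amino acid genes and 66.7% for the 12 branched-chain genes described below. For members chosen by the naming rule, the fold change without wild-type replicate 2 is given where it moved by over 1.5 times or changed sign.

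Levels per length ranked ASN1, GCN4 and ARO4 highest. TPM divides counts by length, so it allows a comparison between genes. The median over the 44 genes was 62.4 TPM in wild type, against 17.57 TPM over all reading frames listed. GCN4 stood at 433.2 ± 10.5 TPM (SD, n = 2), above 95.7% of reading frames and within the spread of its neighbours in that order, ASN1 at 468.8 ± 84.2 TPM and ARO4 at 417.3 ± 41.7 TPM. The lowest were LYS5 at 10.1 ± 1.12 TPM, ARG3 at 10.3 ± 1.48 TPM, ARG5,6 at 10.5 ± 1.72 TPM and LYS14 at 10.75 ± 0.94 TPM, which did not differ beyond their spread. Levels ranged from 10.3 to 102 TPM for arginine, 10.1 to 119 TPM for lysine, 23.5 to 310.5 TPM for histidine, 39.8 to 417 TPM for aromatic, 104 to 341.5 TPM for threonine, 45.6 to 69.5 TPM for serine and 345.4 to 469 TPM for asparagine genes. By mean TPM the asparagine genes thus lay above every arginine, lysine, histidine, threonine and serine gene. The threonine genes lay by mean above every arginine and serine gene. At the edges these orders were within the spread. ASN2 was at 345.4 ± 56.2 TPM and HOM2 at 341.5 ± 51.8 TPM, and HOM3 was at 103.8 ± 11.2 TPM and CPA1 at 101.7 ± 3.8 TPM.

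**Figure D1:**
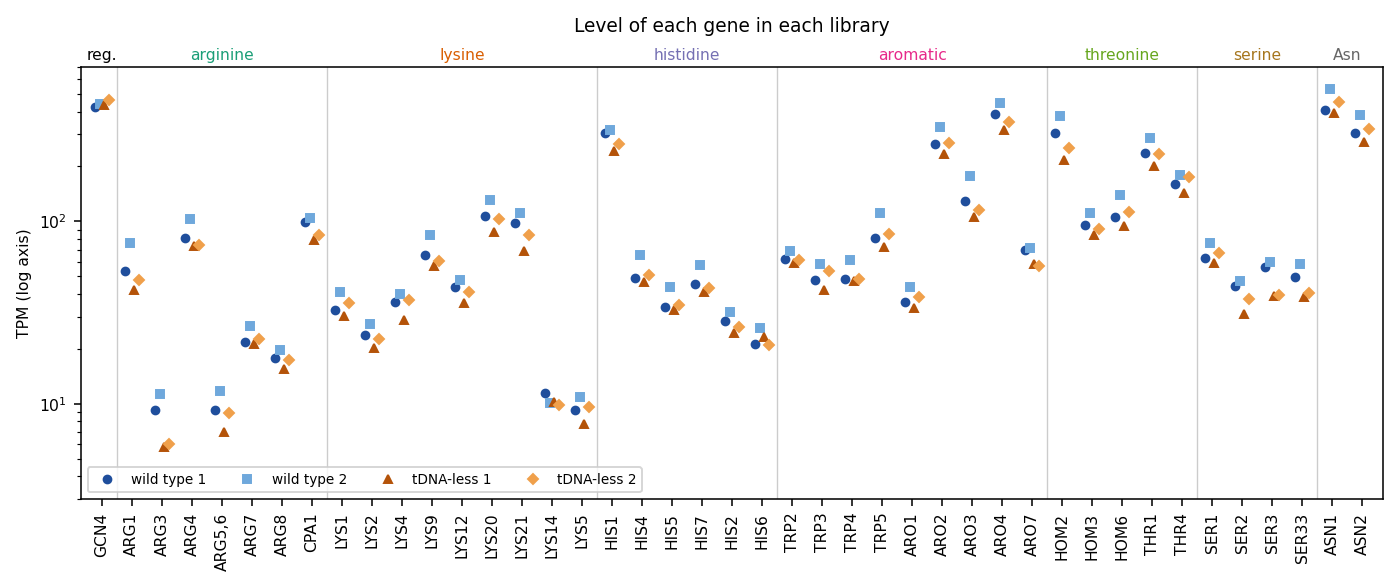
TPM (log axis) of 43 of the 44 genes in the 4 libraries, grouped by pathway, with a marker for each library. Levels run from about 10 TPM for ARG3, ARG5,6, LYS14 and LYS5 in wild type to 468.8 TPM for ASN1, and the libraries of a gene lie close together on this scale.

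The comparison asks whether these genes differ between the strains. SER3 was the single gene of the 44 that passed the test and it fell in the tDNA-less strain, while 0 rose (quasi-likelihood test of edgeR, Benjamini-Hochberg adjusted over all reading frames, adjusted p under 0.05). That is 2.27% of the genes, where 0.693% of all reading frames were called lower, 0.806% higher and 1.5% in either direction, so this count shows nothing about the group. DESeq2 called SER3 and HOM2 and limma-voom called SER3 alone. At an unadjusted p under 0.05, 10 of the 44 were lower and 0 higher, against 5.64% and 6.19% of all reading frames. The group leaned to lower values without many members passing. Fitted log2 fold changes were below 0 in 38 of 44, where 49.4% of all reading frames were, with a median of -0.11 against 0.003. In 21 of the 44 (47.7%) both tDNA-less libraries lay below both wild-type libraries, and in 1, GCN4, above, where 20.8% and 22% of all reading frames did so. These genes are controlled together and are not independent, so these shares are descriptions.

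The lean was smaller without wild-type replicate 2. The median log2 ratio over the 44 genes was -0.20 for each tDNA-less library over wild-type replicate 2 (-0.203 and -0.195). Against wild-type replicate 1 it was -0.03 for tDNA-less replicate 1 and -0.04 for tDNA-less replicate 2. The difference between the wild-type libraries, 0.17, was thus as large as that between strains. Refitted without wild-type replicate 2, the median was -0.05 with 27 of 44 below 0, and without wild-type replicate 1 it was -0.19 with 42 below 0. Without wild-type replicate 2 the medians of the histidine, aromatic and asparagine genes were above 0, at 0.02, 0.04 and 0.08, and those of the other pathways stayed below 0.

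**Figure D2:**
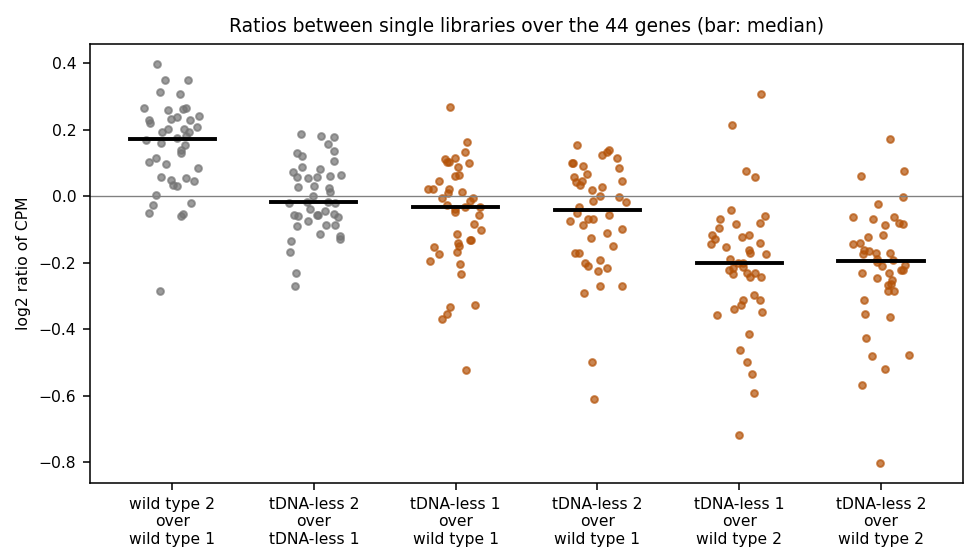
Log2 ratio of CPM between pairs of single libraries, 1 point per gene for the 44 genes, with the median as a bar. The bar of wild-type replicate 2 over wild-type replicate 1 is at 0.17, and the tDNA-less libraries have medians near -0.03 and -0.04 over wild-type replicate 1 and near -0.20 over wild-type replicate 2.

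For the 43 genes that did not pass, the 95% interval of the fitted log2 fold change shows how large a change the data allow. It lay within a 1.5-fold change either way for 39 and within a 2-fold change for 42. The exception was ARG3, whose lower bound was -1.115, and the highest upper bound was 0.364, for LYS5. These intervals cover no adjustment for the number of genes.

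**Figure D3:**
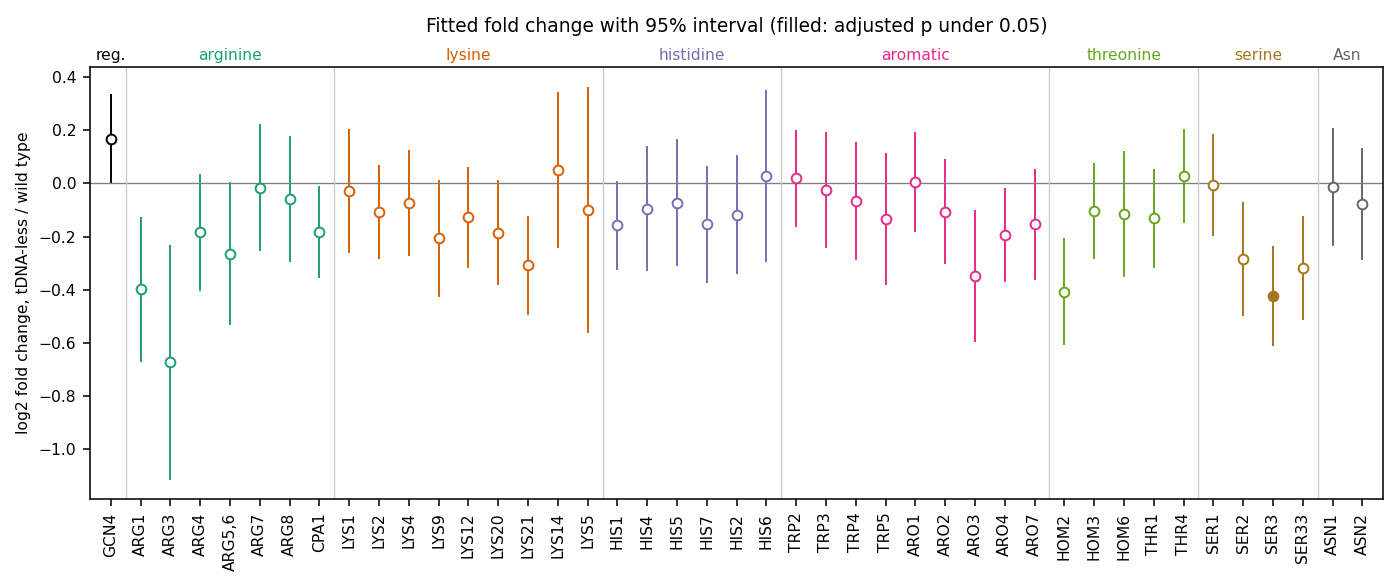
Fitted log2 fold change of 43 of the 44 genes, tDNA-less over wild type, each with its 95% interval, grouped by pathway. SER3 is the only filled point, at -0.42, and GCN4 is at 0.17.

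GCN4 (YEL009C) mRNA did not pass the test, and its fitted value was above 0. It was at 413.9 and 399.9 CPM in the wild-type libraries and at 463.4 and 450.7 CPM in the tDNA-less libraries, which did not overlap. The log2 fold change was 0.17 ± 0.08 (SE; edgeR, adjusted p = 0.424), with an interval from -0.002 to 0.338, the highest value of the 44 genes. In TPM the libraries overlapped, at 425.8 and 440.6 TPM in wild type and 431.7 and 461.5 TPM in the tDNA-less strain. Of 16 genes that control Gcn4 translation and turnover, limma-voom, DESeq2 and edgeR each called 0. At an unadjusted p under 0.05 there were 3, all lower, where 5.64% of all reading frames were. The median log2 fold change of the 16 was -0.06. GCN2, the kinase that senses uncharged tRNA, was at 44.9 and 45.3 CPM in wild type and 43.8 and 42.9 CPM in the tDNA-less strain, a log2 change of -0.06 ± 0.09 (edgeR, adjusted p = 0.87).

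The serine genes had the lowest median, -0.30, with 3 of 4 lower in both tDNA-less libraries, where 20.8% of all reading frames were. SER3 and SER33 encode the phosphoglycerate dehydrogenases that start serine synthesis from a glycolytic intermediate, and they share 4.35% of their 31-base words. SER3 (YER081W, chromosome V, 322686 to 324095) was at 100.5 and 99 CPM in wild type and 77.8 and 71.1 CPM in the tDNA-less strain. Both tDNA-less libraries were below both wild-type libraries. It fell 1.34-fold, which is -0.42 ± 0.08 on the log2 scale (SE; edgeR, adjusted p = 0.042). The call is a narrow one. Leaving out any of the 4 libraries ended it, as did testing log2(TPM + 1), with log2 fold changes from -0.36 to -0.55 there. Over 14 alternatives its adjusted p ranged from 0.00428 to 0.523, passing in 7.

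SER33 (YIL074C, chromosome IX, 221081 to 222490) was at 88.5 and 97.3 CPM in wild type and 76.85 and 72.3 CPM in the tDNA-less strain. The libraries did not overlap, and the log2 fold change of -0.32 ± 0.09 did not pass (edgeR, adjusted p = 0.145). SER2, the phosphoserine phosphatase of the last step, was at 48.1 and 48.2 CPM in wild type and 37.6 and 41.4 CPM in the tDNA-less strain, with a log2 change of -0.28 ± 0.10 (edgeR, adjusted p = 0.248). SER1, the aminotransferase between them, overlapped between strains, with a log2 fold change of -0.01.

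The upstream stretches of the serine pair are shown because they hold the only call and its nearest counterpart. They cover the 200 bases that end 50 bases before the start codon, chrV:322436-322635 for SER3 and chrIX:222541-222740 for SER33, in the coding direction, with TGACTC or its reverse complement in capitals. SER33 held 1 match and SER3 none in the whole 250-base window. In SER3 the window is crossed by SRG1, a noncoding RNA known to repress SER3 when it is transcribed, and the annotation overlaps the SER3 reading frame by 77 bases on the same strand. Reads of SRG1 in that overlap cannot be told from those of SER3.
SER3: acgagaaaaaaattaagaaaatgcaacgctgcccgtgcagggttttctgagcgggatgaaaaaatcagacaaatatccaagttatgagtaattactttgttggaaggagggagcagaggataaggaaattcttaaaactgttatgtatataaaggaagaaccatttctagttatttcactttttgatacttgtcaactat
SER33: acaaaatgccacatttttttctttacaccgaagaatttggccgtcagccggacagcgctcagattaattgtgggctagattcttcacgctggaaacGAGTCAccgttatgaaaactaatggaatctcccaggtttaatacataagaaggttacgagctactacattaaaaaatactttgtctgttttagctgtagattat

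The 5 threonine genes had a median of -0.12, with HOM2 lowest. HOM2 (YDR158W), the aspartate semialdehyde dehydrogenase on the path to threonine and methionine, was at 407.5 and 471 CPM in wild type and 324.9 and 337.8 CPM in the tDNA-less strain. The libraries did not overlap. Its log2 fold change of -0.41 ± 0.09 did not pass (edgeR, adjusted p = 0.07), and over 14 alternatives the adjusted p ranged from 0.0026 to 0.639, passing in 3. The next largest change was that of THR1, the homoserine kinase, with 309.7 and 345.8 CPM in wild type and 292 and 306.8 CPM in the tDNA-less strain (log2 fold change -0.13 ± 0.08, edgeR, adjusted p = 0.593). That of THR1 was -0.049 without wild-type replicate 2 and -0.215 without wild-type replicate 1. HOM3, the aspartate kinase that opens the pathway, and HOM6, the homoserine dehydrogenase, had log2 fold changes of -0.10 and -0.12.

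Of 8 arginine genes, 5 were lower in both tDNA-less libraries, where 20.8% of all reading frames were. An unadjusted p under 0.05 was found for 3, all lower (5.64% of all reading frames), and limma-voom, DESeq2 and edgeR each called 0. Their median was -0.18. All 8 fitted log2 fold changes were below 0. ARG3 (YJL088W), the ornithine carbamoyltransferase, was at 11.3 and 12.9 CPM in wild type and 7.84 and 7.39 CPM in the tDNA-less strain, with no overlap. Its log2 fold change of -0.67 ± 0.20 was the largest of the 44 genes and did not pass (edgeR, adjusted p = 0.18). ARG1 (YOL058W), the argininosuccinate synthase that acts next, was at 84.5 and 111.3 CPM in wild type and 73.85 and 75.1 CPM in the tDNA-less strain. The wild-type libraries were farther apart than the lower of them was from the tDNA-less libraries. The log2 fold change was -0.40 ± 0.12 (edgeR, adjusted p = 0.197). It was -0.18 without wild-type replicate 2 and -0.585 without wild-type replicate 1, and it passed only in the latter of these. CPA1, a subunit of the arginine-specific carbamoyl phosphate synthase, was at 152.2 and 149.4 CPM in wild type and 135.5 and 130.3 CPM in the tDNA-less strain (log2 fold change -0.18 ± 0.08, edgeR, adjusted p = 0.384). The lyase ARG4 and the acetyltransferase ARG7 overlapped between strains, with log2 fold changes of -0.18 and -0.02.

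Of the 9 lysine genes, 5 were lower in both tDNA-less libraries, where 20.8% of all reading frames were. An unadjusted p under 0.05 was found for 1, which was lower (5.64% of all reading frames), and limma-voom, DESeq2 and edgeR each called 0. Their median was -0.11. LYS20 (YDL182W) and LYS21 (YDL131W) encode homocitrate synthases, which start the pathway. LYS21 was at 162 and 171.7 CPM in wild type and 128.7 and 140.9 CPM in the tDNA-less strain, with no overlap and a log2 change of -0.31 ± 0.08 (edgeR, adjusted p = 0.143). LYS20 was at 173 and 196.2 CPM in wild type and 157.9 and 167.1 CPM in the tDNA-less strain (log2 fold change -0.18 ± 0.09, edgeR, adjusted p = 0.445). The pair shares 46.5% of the 31-base words of LYS20 and 45.2% of those of LYS21, so the division of their reads by kallisto is an estimate. LYS9, a saccharopine dehydrogenase near the end of the pathway, was at 109.9 and 131.4 CPM in wild type and 106.9 and 102.7 CPM in the tDNA-less strain (-0.21 ± 0.10, edgeR, adjusted p = 0.445). Without wild-type replicate 2 the fold changes of LYS20 and LYS9 were -0.09 and -0.07, and without wild-type replicate 1 they were -0.28 and -0.33. LYS14, the activator of the lysine genes that responds to the intermediate aminoadipate semialdehyde, overlapped between strains with a log2 fold change of 0.05.

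Of the 9 aromatic genes, 3 were lower in both tDNA-less libraries, where 20.8% of all reading frames were. An unadjusted p under 0.05 was found for 2, both lower (5.64% of all reading frames), and limma-voom, DESeq2 and edgeR each called 0. Their median was -0.11. ARO3 (YDR035W) and ARO4 (YBR249C) encode the DAHP synthases that start the shared pathway, inhibited by phenylalanine and by tyrosine respectively. ARO3 was at 176.8 and 225.1 CPM in wild type and 159.3 and 157 CPM in the tDNA-less strain, without overlap (log2 fold change -0.35 ± 0.11, edgeR, adjusted p = 0.222). Its wild-type libraries differed by more than the lower of them did from the tDNA-less libraries. The value was -0.16 without wild-type replicate 2 and -0.52 without wild-type replicate 1, passing only in the latter of these. ARO4 was at 526.9 and 565.4 CPM in wild type and 480.7 and 474.6 CPM in the tDNA-less strain (-0.19 ± 0.08, edgeR, adjusted p = 0.363). ARO7, the chorismate mutase, was the other aromatic gene without overlap, at -0.15. TRP2, TRP3, TRP4 and TRP5, which make tryptophan from chorismate, all overlapped, with log2 fold changes of 0.02, -0.03, -0.07 and -0.13, as did ARO1 at 0.01 and ARO2, the chorismate synthase, at -0.11.

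The marker HIS3 rose in the tDNA-less strain. The 6 other histidine genes had a median of -0.11, with 2 lower in both tDNA-less libraries, where 20.8% of all reading frames were. HIS3, an enzyme of the same pathway, went from 12.4 and 8.5 CPM to 403.5 and 461.6 CPM, a log2 change of 5.41 ± 0.16 (edgeR, adjusted p = 1.5e-07). The label gives it as inserted there. Of the 6 other genes limma-voom, DESeq2 and edgeR each called 0, and none was below 0.05 in unadjusted p. HIS1 (YER055C), the ATP phosphoribosyltransferase that commits to the pathway, was at 318.1 and 306.7 CPM in wild type and 281.7 and 278.2 CPM in the tDNA-less strain (log2 fold change -0.16 ± 0.07, edgeR, adjusted p = 0.442). HIS7, the imidazole glycerol phosphate synthase, was at 97.1 and 114.9 CPM in wild type and 98.5 and 92.6 CPM in the tDNA-less strain (-0.15 ± 0.10, edgeR, adjusted p = 0.593). The HIS7 value was -0.025 without wild-type replicate 2 and -0.27 without wild-type replicate 1. HIS6, the isomerase before it, had the highest value, 0.03.

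HIS4 and THR4 are the members on chromosome III, where the tDNA-less genotype numbers its tRNA gene deletions. HIS4 (YCL030C), which catalyses several steps of histidine synthesis, lies at 65934 to 68333, and the nearest of the 10 tRNA genes annotated on chromosome III is 14129 bases away. It was at 158.1 and 196.3 CPM in wild type and 169.5 and 163.1 CPM in the tDNA-less strain. The tDNA-less libraries lay between the wild-type libraries, with a log2 change of -0.09 ± 0.10 (edgeR, adjusted p = 0.79). THR4 (YCR053W), the threonine synthase, lies at 216697 to 218241, 9701 bases from the tRNA gene SUP61. It was at 319.6 and 331.8 CPM in wild type and 318.3 and 345.9 CPM in the tDNA-less strain, and here the wild-type libraries lay between the tDNA-less ones (0.03 ± 0.08, edgeR, adjusted p = 0.938). The labels number 9 deletions, against the 10 tRNA genes annotated. They do not say which annotated tRNA gene each numbered deletion is, or whether SUP61 is among them. Without wild-type replicate 2 the HIS4 value was 0.07 and the THR4 value 0.055, and without wild-type replicate 1 those of HIS4 and THR4 were -0.247 and -0.005. The intervals of the full fit were -0.330 to 0.141 for HIS4 and -0.150 to 0.206 for THR4.

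The asparagine synthetases, of which ASN1 had the highest TPM of the 44 genes, overlapped between strains, and limma-voom, DESeq2 and edgeR each called 0 of 2. Neither was below 0.05 in unadjusted p. ASN1 (YPR145W) was at 915 and 1098 CPM in wild type and 988.5 and 1008 CPM in the tDNA-less strain (log2 fold change -0.01 ± 0.10, edgeR, adjusted p = 0.982). ASN2 (YGR124W) was at 683.3 and 800.3 CPM in wild type and 688.6 and 715.9 CPM in the tDNA-less strain (-0.08 ± 0.09, edgeR, adjusted p = 0.808). For both, the tDNA-less libraries lay between the wild-type ones. Without wild-type replicate 2 the values were 0.126 for ASN1 and 0.039 for ASN2, and without wild-type replicate 1 they were -0.144 and -0.195.

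**Figure D4:**
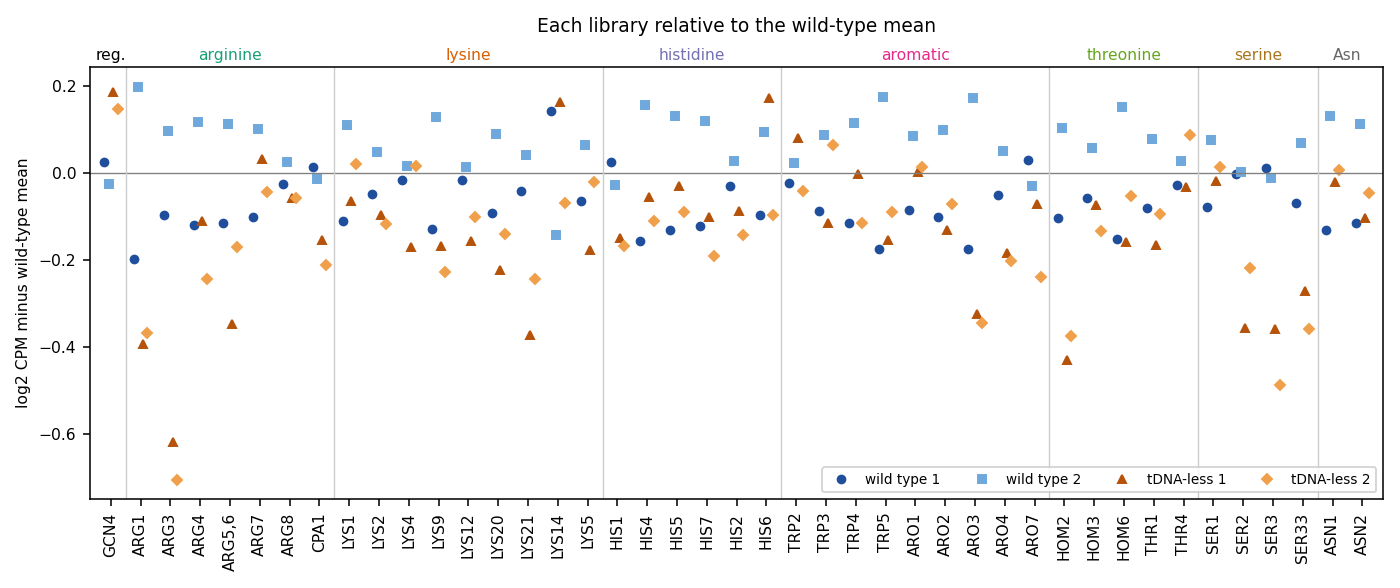
Log2 CPM of each library minus the mean of the wild-type libraries, for 43 of the 44 genes by pathway. Wild-type replicate 2 is above wild-type replicate 1 for most of them (38 of all 44), and the tDNA-less markers are farthest below 0 for ARG3, SER3, HOM2 and ARG1.

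For pairs of enzymes for the same reaction, the log2 ratio moved between strains by 0.14 or less in either direction. The log2 ratio of TPM of SER3 over SER33 was 0.185 and 0.025 in the wild-type libraries and 0.018 and -0.025 in the tDNA-less libraries, a difference between strains of -0.11. That of LYS20 over LYS21 was 0.14 and 0.24 in wild type and 0.34 and 0.29 in the tDNA-less strain, a difference of 0.13. ARO3 stood below ARO4, with log2 ratios of -1.58 and -1.33 in wild type and -1.59 and -1.60 in the tDNA-less strain, a difference of -0.14. ASN1 over ASN2 gave 0.42 and 0.46 in wild type and 0.52 and 0.49 in the tDNA-less strain, a difference of 0.07. The libraries of the strains did not overlap in any pair, and each exact two-sided permutation test gave p = 0.333, the smallest that 4 libraries allow. The size of these differences varied with the library left out, least for ASN1 over ASN2, which stayed between 0.051 and 0.086. That of ARO3 over ARO4 was -0.02 without wild-type replicate 2 and -0.27 without wild-type replicate 1. That of SER3 over SER33 was -0.03 without wild-type replicate 1 and -0.19 without wild-type replicate 2. That of LYS20 over LYS21 was 0.08 without wild-type replicate 1 and 0.18 without wild-type replicate 2.

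The median log2 fold change lay nearer to 0 for genes with TGACTCA before them. It was -0.07 for the 17 genes with it, 0 of them called by edgeR and 1, HOM2, by DESeq2, and -0.13 for the 27 without it, 1 called. Both tDNA-less libraries were lower for 5 of the 17 (29.4%) and for 16 of the 27 (59.3%), where 20.8% of all reading frames were. An unadjusted p under 0.05 was found for 1 of the 17 and 9 of the 27, all lower, against 5.64% of all reading frames. With TGACTC the medians were -0.07 for 25 genes and -0.15 for the 19 without, with 9 (36%) and 12 (63.2%) lower in both libraries. The difference was not tested.

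Lists of related genes, with breakdown steps, pathway regulators and glutamate synthesis among them, gave 0 calls with edgeR or limma-voom. DESeq2 called GDH1 alone. All 5 other aromatic genes (TYR1, PHA2, ARO8, ARO9 and ARO10) were lower in both tDNA-less libraries, where 20.8% of all reading frames were. Their median was -0.16, their log2 fold changes ran from -0.21 to -0.07, and there was no unadjusted p under 0.05. Over all reading frames, 5.64% were lower and 6.19% higher at an unadjusted p under 0.05. Of 7 further genes of arginine and proline metabolism 1 was higher at that level, CAR2, named after its values were seen. CAR2 is the ornithine transaminase of arginine breakdown. It was at 15.9 and 17.6 CPM in wild type and 22.5 and 23.25 CPM in the tDNA-less strain (0.45 ± 0.13, edgeR, adjusted p = 0.178). Of 4 genes of threonine and serine use 1 was lower and 1 higher at an unadjusted p under 0.05, both named after their values were seen. SHM2, a serine hydroxymethyltransferase, was at 229.1 and 249.4 CPM in wild type and 196.6 and 202 CPM in the tDNA-less strain (-0.26 ± 0.08, edgeR, adjusted p = 0.192). CHA1, the serine and threonine deaminase of breakdown, was at 9.65 and 10.4 CPM in wild type and 16.4 and 17.5 CPM in the tDNA-less strain (0.75 ± 0.16, edgeR, adjusted p = 0.0635). Of the 9 other pathway regulators, among them ARG80, BAS1 and CHA4, 0 were called and 0 had an unadjusted p under 0.05, with a median of 0.11. Of 5 genes for glutamate and glutamine synthesis edgeR and limma-voom called 0 and DESeq2 called 1, 2 had an unadjusted p under 0.05, both lower, and the median was -0.13. GDH1, the glutamate dehydrogenase that uses NADPH, was named after its values were seen, at 654.8 and 754 CPM in wild type and 525.7 and 556.6 CPM in the tDNA-less strain (-0.38 ± 0.09, edgeR, adjusted p = 0.0989).

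The branched-chain and sulfur amino acid genes, which Gcn4 is also known to activate in part, had lower medians. Of 12 branched-chain genes without LEU2, edgeR called 7 lower (58.3%) and 0 higher, with a median log2 fold change of -0.56. Of 15 sulfur amino acid genes it called 5 lower (33.3%) and 0 higher, with a median of -0.52. Of all reading frames, 0.693% were called lower and 0.806% higher. LEU1, the isopropylmalate isomerase, OAC1, a mitochondrial carrier, BAT1, an aminotransferase, and ILV3, a dehydratase, fell with log2 fold changes of -2.92, -2.10, -1.91 and -0.84. The marker LEU2 had -1.12. In the sulfur group the falls were led by MET3, the ATP sulfurylase, with -1.17, MET5, a sulfite reductase subunit, with -0.98, MET14, the adenylylsulfate kinase, with -0.95 and MET6, the methionine synthase, with -0.77. Against wild-type replicate 1 alone, the tDNA-less libraries had medians of -0.52 and -0.49 for the branched-chain genes and -0.29 and -0.28 for the sulfur genes, where the 44 genes had -0.03 and -0.04. The difference between these groups was not tested.

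**Figure D5:**
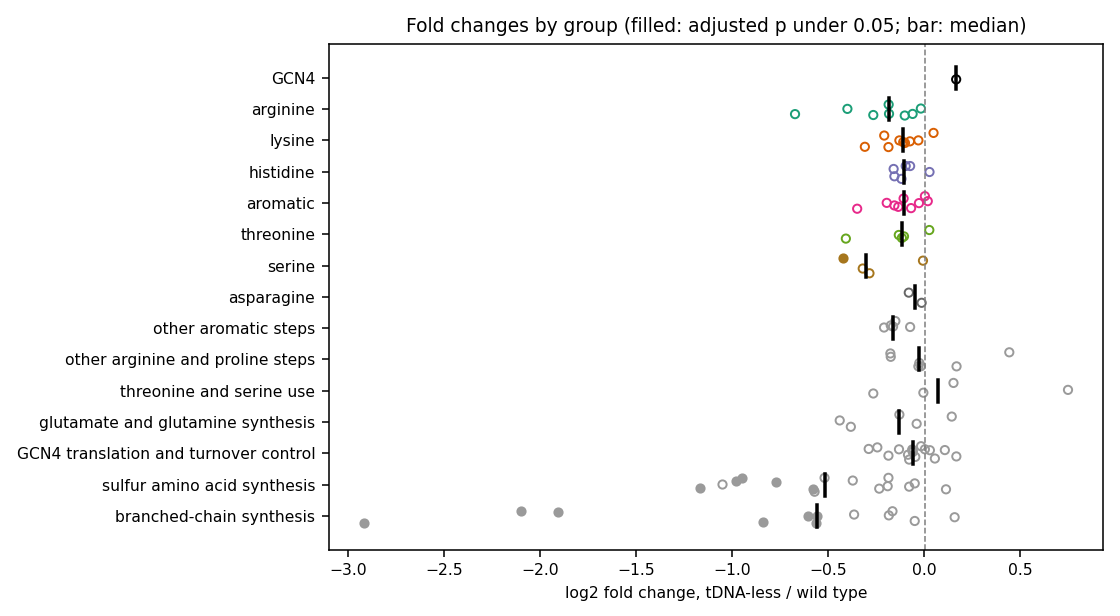
Fitted log2 fold change of each gene by group, tDNA-less over wild type, with medians as bars, called genes filled and the median of all reading frames dashed. The pathways at the top have medians from -0.30 to -0.05 and GCN4 is at 0.17, while the sulfur and branched-chain groups have medians of -0.52 and -0.56.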

How the data were processed

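The deposited tables give, per library and reading frame, an estimated count and a TPM value in kallisto's output columns, per the file headers. The submitters' processing notes name kallisto, sleuth and the build sacCer3, and for versions, index and strand setting the sources used here give nothing. TPM values in the deposited tables divide the estimated counts by effective length and scale each library to the same total. Lengths are coding lengths. The genes, lists and tests were chosen with earlier results of these data known.

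Estimated counts were rounded, filtered with edgeR's filterByExpr at a minimum of 10 counts (6205 of 6706 reading frames left), scaled by TMM and tested by quasi-likelihood F test in edgeR 4.0.16 under R 4.3.3, Benjamini-Hochberg adjusted over all of them. Standard errors are the absolute log2 fold change over the square root of F, and the 95% intervals use the t distribution of the same fit. CPM values are TMM-scaled, with n = 2 per strain, and 4 libraries cannot reach p below 0.333 in a permutation test. The test was also run on simulated counts, whose outcome is not given here, and no statement about a call rests on it. The libraries of a strain differed by more than counting noise (chi-square per degree of freedom 61.4 and 45.1). YSH1, ATG7, LTO1 and MSK1 took between 30.63% and 45.09% of the counts of a library. Names and positions come from RefSeq R64, in which 6004 reading frames were found, 99.8% with the same coding length, all 44 genes among them. The labels name no batch. Alternatives were DESeq2's size factors, DESeq2 1.42.0, limma-voom and limma 3.58.1 on log2(TPM + 1) and log2(TPM + 0.1) with a filter at a mean of 1 TPM, log2(TPM + 1) with no filter, no count filter, a mean count of at least 50, removal of those 4 reading frames, a replicate block and each library left out. The text names GCN4, called members, the 2 largest changes per pathway, the chromosome III members, enzyme pairs, up to 4 called genes per other list, GCN2 and the markers HIS3 and LEU2. Other members are mostly summarised, and 1 member counts in the group values but is not reported singly here.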

Additional observations from a re-analysis of the deposited data

How the results depend on the processing

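The call of SER3 and the lean to lower values depended on the libraries. The count of called genes among the 44 was 1, and it was 2 with DESeq2 (SER3 and HOM2), 6 with the replicate block (ARG1, LYS21, ARO3, HOM2, SER3 and SER33), 0 in each limma fit of TPM and between 0 and 3 when a library was left out. It was 3 without wild-type replicate 1 (ARG1, ARO3 and HOM2) and 0 without each of the others. Over all reading frames the count was 93, and it was 282 with the replicate block, 27 on log2(TPM + 1), 26 on log2(TPM + 0.1), 15 on log2(TPM + 1) with no filter, and 21 to 91 when a library was left out, lowest without tDNA-less replicate 1 and 30 without tDNA-less replicate 2. On the log2(TPM + 1) scale 29.6% of the calls were higher, against 53.8%. The TPM scale put the median of all reading frames at -0.113, where TMM put it at 0.003, and the medians of the 44 genes relative to it were -0.123 and -0.114. On log2(TPM + 1), with or without a filter, the medians were -0.236 over the 44 genes, -0.311 for arginine, -0.241 for lysine, -0.228 for histidine, -0.233 for aromatic, -0.237 for threonine, -0.423 for serine and -0.178 for asparagine genes. On log2(TPM + 0.1) they were -0.241, -0.314, -0.250, -0.234, -0.234, -0.239, -0.432 and -0.178 in that order. When a library was left out the medians ranged from -0.188 to -0.047 over the 44 genes, -0.267 to -0.099 for arginine, -0.172 to -0.069 for lysine, -0.175 to 0.024 for histidine, -0.181 to 0.043 for aromatic, -0.215 to -0.045 for threonine, -0.342 to -0.265 for serine and -0.17 to 0.082 for asparagine genes, each highest without wild-type replicate 2. Over the same fits HIS4 ranged from -0.247 to 0.072, ASN1 from -0.144 to 0.126 and ASN2 from -0.195 to 0.039, each above 0 without wild-type replicate 2. THR4 turned from 0.03 to -0.109, -0.110 and -0.109 in the limma fits of TPM, to -0.005 without wild-type replicate 1 and to -0.033 without tDNA-less replicate 2. The other members chosen by the naming rule kept their direction in every alternative run. Members given by a fold change alone were followed only as a group, of which 38 of 44 lay below 0, 43 in the limma fits of TPM and 27 to 42 when a library was left out. The cause of these shifts was not tested. Same-numbered libraries of the strains share only a number in the labels, and their deviations from the strain means correlated at 0.267. Differences of the enzyme pairs could not change sign when a library was left out, because the libraries of the strains did not overlap. Counts per coding length divide the same estimated counts by a length and gave the same differences as TPM, so neither is a separate check.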

Other observations

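Of 126 reading frames tested that have TGACTCA within 250 bases before the start, the 17 genes above included, 6 were called lower (4.76%) and 0 higher, against 0.693% and 0.806% of all reading frames (edgeR, adjusted p under 0.05). Of the 17 genes 0 were called, so all 6 calls lie outside the 44 genes. The median log2 fold change was -0.04, and 73 of the 126 (57.9%) were below 0, against 49.4% of all. Over wild-type replicate 1 the tDNA-less libraries had median log2 ratios of -0.012 and -0.006 for the 126. Over wild-type replicate 2 these medians were -0.121 and -0.080. BAT1 had the lowest value, -1.91, and YER175W-A the highest, 0.72, and neither is among the 44 genes.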
